A study of Mus musculus with 8 samples.

Results

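Paired box (PAX), sine oculis homeobox and COUP-TF proteins are transcription factors that pattern the embryo, and they were examined here in cell lines of murine small cell lung cancer (SCLC). The study's question was whether tumor cells that lack caspase 8 keep a neuronal progenitor-like state outside the tumor. A set of 9 such genes was considered, and 8 of them had a row among the 23649 genes with counts, 2 PAX genes (Pax3 and Pax9), 4 sine oculis homeobox genes (Six2, Six3, Six4 and Six5) and 2 COUP-TF genes (Nr2f1 and Nr2f2). The remaining PAX gene was not analysed here. Pax3, Six3 and Nr2f1 were chosen by their higher counts in the KO columns, and the other 5 genes are their paralogs. Their difference between genotypes is therefore a description, and no test of it is given as support.

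Bulk RNA-seq was available for 8 lung tumor cell lines. The 4 RP lines (labelled RP Caspase 8 WT) carry recombined Rb1 fl/fl and Trp53 fl/fl alleles, and the 4 RPC lines (labelled RP Caspase 8 KO) carry recombined Casp8 fl/fl alleles as well, so that Rb1 and Trp53 are lost in both groups. The mice were 8 to 12 weeks old when they inhaled an adenovirus that expresses Cre from the CMV promoter, which is active in many cell types. Tumors were dissociated and grown out in culture, with no sorting step described, and the Casp8 fl/fl mice were on a C57BL/6 background. According to the study, the lines stem from separate tumors of RP and RPC mice, so the errors given measure the spread between such lines. The lines are numbered 1 to 4 within each genotype.

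PAX proteins bind DNA through a paired domain, sine oculis homeobox proteins through a homeodomain, and COUP-TFs through the zinc fingers of the nuclear receptor family. Pax3 acts in the dorsal neural tube, the neural crest and muscle precursors, Six3 in the anterior forebrain and the eye field, and Nr2f1 in the patterning of the neocortex. In the lung, pulmonary neuroendocrine cells are held to be a main origin of SCLC.

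The stretch of DNA just before the transcription start is shown for Pax3, Six3 and Nr2f1, the genes chosen for their higher counts in the RPC lines. Each run holds the 250 bases before the start of the canonical transcript, on the strand of the gene, in GRCm39. Capitals mark CCAAT or its reverse complement ATTGG, letters that were chosen after the sequences were seen. Pax3 (chr1:78173772-78174021, minus strand) is followed by Six3 (chr17:85928012-85928261, plus strand) and Nr2f1 (chr13:78348579-78348828, minus strand).
Pax3: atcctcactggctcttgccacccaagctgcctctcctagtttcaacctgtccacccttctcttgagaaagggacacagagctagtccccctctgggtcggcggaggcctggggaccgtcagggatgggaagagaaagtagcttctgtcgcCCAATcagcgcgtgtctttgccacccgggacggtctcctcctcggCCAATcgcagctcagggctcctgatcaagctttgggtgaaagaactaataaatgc
Six3: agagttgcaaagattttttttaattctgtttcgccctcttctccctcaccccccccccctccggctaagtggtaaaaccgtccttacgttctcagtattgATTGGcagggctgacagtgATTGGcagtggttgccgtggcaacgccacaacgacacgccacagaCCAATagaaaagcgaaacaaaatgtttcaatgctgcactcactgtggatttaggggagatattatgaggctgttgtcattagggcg
Nr2f1: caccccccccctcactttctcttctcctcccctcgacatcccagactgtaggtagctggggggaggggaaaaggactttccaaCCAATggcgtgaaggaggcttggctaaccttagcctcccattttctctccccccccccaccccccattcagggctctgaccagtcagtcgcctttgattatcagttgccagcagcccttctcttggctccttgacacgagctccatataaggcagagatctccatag

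The CCAAT letters, counted on both strands, occurred 2 times before Pax3, 3 times before Six3 and once before Nr2f1. Among the paralogs they occurred once each before Pax9, Six2 and Six4 and 0 times before Six5 and Nr2f2. At least 1 match was in 36.0% of 15500 promoters of protein-coding genes with counts, with chromosome 18 left out. The dinucleotide CG occurred 10 times before Pax3 and before Six3 and 4 times before Nr2f1, where the median promoter held 11. The window of Six2 held 26 CG dinucleotides, more than 90.9% of the promoters. Neither TATAAA (8.48% of promoters, both strands) nor CAGCTG (11.7%, a palindrome) was found in the 3 windows shown. These are matches of letters and no measurement of binding.

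The libraries held between 7128455 and 10169996 counts. Mitochondrial transcripts took 5.66% to 9.63% of the counts, and 16097 to 17968 genes were detected per line. Casp8 was lower on average in RPC lines, with 41 to 111 counts against 99 to 532 counts in RP lines, and the groups overlapped. A 3′ library reads the end of the transcript, so these counts do not check a deletion elsewhere in the gene. The lines differed widely in their neuroendocrine character. CPM are counts scaled to the size of the library, here by edgeR's TMM method. The summed level of the neuroendocrine list, with 13 of 14 genes measured, was 89.5 to 4389 CPM in RP lines and 781 to 6117 CPM in RPC lines. It was lowest in RP line 4, although every line is labelled as a lung tumor cell line. The leukocyte and endothelial list was low, with a summed level of 5.26 to 10.7 CPM in every line and 6 of 9 genes with a row. Most of that sum came from Cd68, with 15 to 50 counts, and Kdr, with 15 to 51 counts.

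Pax3 was low in every RP line and present in every RPC line. It had 0.438, 0.609, 0.10 and 1.01 CPM in RP lines 1 to 4 and 14.9, 2.69, 30.4 and 2.02 CPM in RPC lines 1 to 4. The groups did not overlap, but the gap between RP line 4 (8 counts) and RPC line 4 (13 counts) was 5 counts wide, and RPC line 3 alone held 58.3% of the CPM summed over the lines. The edgeR log2 fold change was 4.51 with a standard error of 1.09. Over the lines of each genotype it averaged 0.539 ± 0.378 CPM (SD, n = 4) in RP and 12.5 ± 13.3 CPM (SD, n = 4) in RPC. The gene spans chr1:78077904-78173771 on the minus strand.

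Pax9 (chr12:56738552-56759607, plus strand), a regulator of pharyngeal pouch and tooth development, was distributed differently. It had 122, 15.4, 2.91 and 0.631 CPM in RP lines 1 to 4, and 4.32, 31.9, 3.47 and 5.28 CPM in RPC lines 1 to 4. RP line 1 was the highest and RP line 4 the lowest of all lines, so that every RPC line lay inside the RP range. The averages were 35.2 ± 58.2 CPM (SD, n = 4) for RP and 11.3 ± 13.8 CPM (SD, n = 4) for RPC. The log2 fold change was -1.64 with a standard error of 1.44, and it turned positive, 0.82, when RP line 1 was left out. Of the 6 other PAX genes examined, 5 had a row, and Pax5, a B cell factor, reached 56 counts in RP line 1 while Pax1, Pax2, Pax7 and Pax8 had at most 6 counts in any line.

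**Figure D1:**
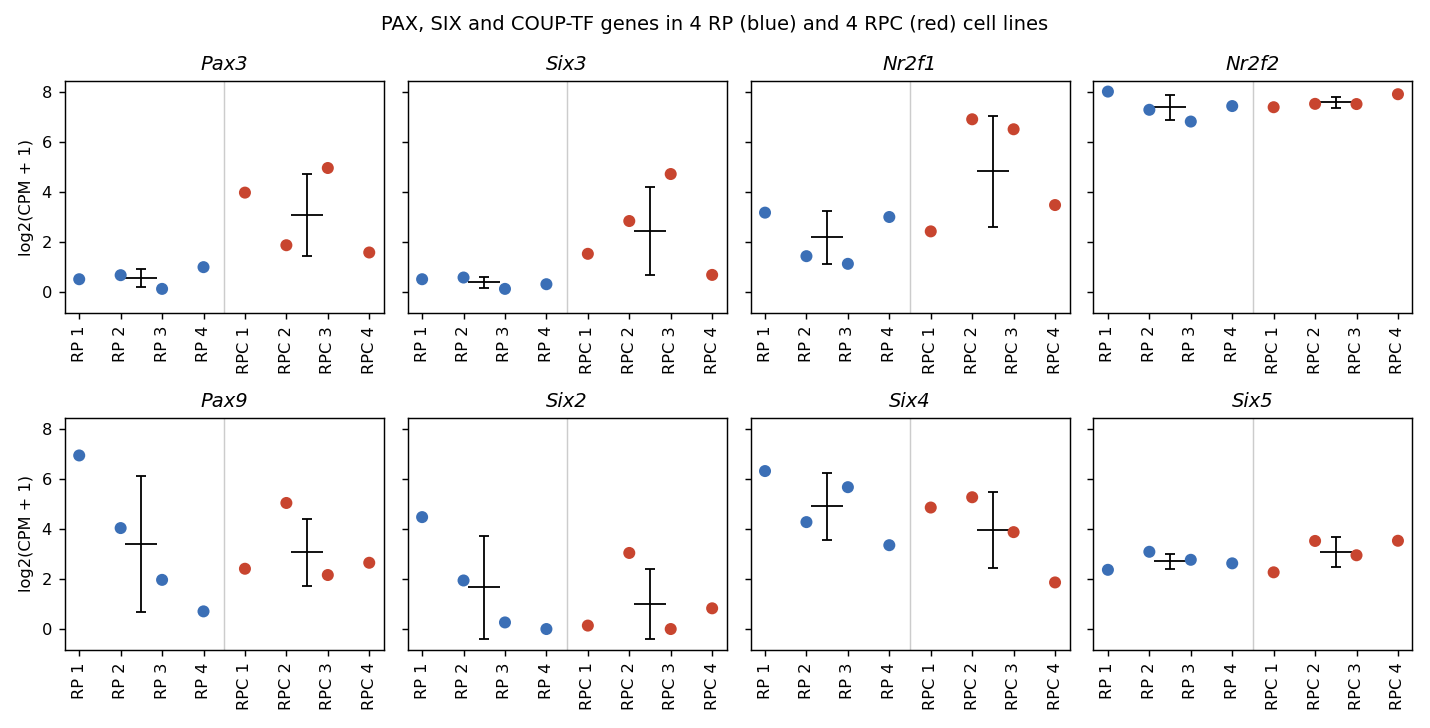
Level of each gene in each cell line as log2(CPM + 1), with RP lines in blue, RPC lines in red and the mean ± SD of each genotype (n = 4) in black. Pax3 and Six3 lie higher in all 4 RPC lines than in any RP line, Nr2f1 in 3 of 4, and the other 5 genes overlap.

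Six3 showed the same order of genotypes at lower counts. RP lines 1 to 4 had 0.438, 0.507, 0.10 and 0.253 CPM of Six3, from 1 to 5 counts, and RPC lines 1 to 4 had 1.91, 6.22, 25.6 and 0.621 CPM. RPC line 4, with 4 counts, had fewer counts than RP line 2, with 5, and lay above it only after scaling to library size. RPC line 3 held 71.8% of the summed CPM. On average RP lines held 0.325 ± 0.184 CPM (SD, n = 4) and RPC lines 8.57 ± 11.6 CPM (SD, n = 4). The count filter removed Six3, and the fit over every gene gave 4.69 as its log2 fold change with a standard error of 1.18, which became 3.12 without RPC line 3. Six3 lies on chr17:85920640-85936730, plus strand.

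Six2, which maintains nephron progenitors in the kidney, is the next gene with counts on chromosome 17, 54934 bases from Six3 and on the opposite strand (chr17:85991665-85996020). Its level was 21.3, 2.84, 0.200 and 0 CPM in RP lines 1 to 4, and 0.10, 7.24, 0 and 0.776 CPM in RPC lines 1 to 4. The counts of 0 allow up to 3 counts, or 0.379 CPM in RP line 4 and 0.315 CPM in RPC line 3, for counting error only. RP lines averaged 6.07 ± 10.2 CPM (SD, n = 4) and RPC lines 2.03 ± 3.49 CPM (SD, n = 4). The lines with most Six2 were RP line 1 and RPC line 2, whereas RPC line 3, the line with most Six3, had no count of Six2. Without the filter, which removed it, the log2 fold change of Six2 was -1.52 with a standard error of 1.78. It was 0.96 without RP line 1 and -4.37 without RPC line 2.

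Six4 (chr12:73146383-73160230, minus strand) acts in the development of muscle, kidney and sensory organs. RP lines 1 to 4 had 78.7, 18.4, 50.0 and 9.22 CPM of Six4, and RPC lines 1 to 4 had 28.0, 37.6, 13.7 and 2.64 CPM. The 3 lines with most Six4, RP lines 1 and 3 and RPC line 2, were also the 3 lines with least Rest, a repressor of neuronal genes. Six4 averaged 39.1 ± 31.7 CPM (SD, n = 4) over RP and 20.5 ± 15.4 CPM (SD, n = 4) over RPC lines. The log2 fold change was -0.93 with a standard error of 0.86, and the groups overlapped. Six5 (chr7:18828185-18832625, plus strand) was the steadiest gene of its family, with 4.16, 7.51, 5.81 and 5.18 CPM in RP lines 1 to 4 and 3.82, 10.5, 6.73 and 10.6 CPM in RPC lines 1 to 4. Six5 averaged 5.67 ± 1.41 CPM (SD, n = 4) over RP and 7.90 ± 3.25 CPM (SD, n = 4) over RPC lines. Its highest line was 2.77 times its lowest, and its log2 fold change was 0.48 with a standard error of 0.44. Dmpk, a kinase gene that ends 438 bases before Six5 starts, ranged from 3.26 to 73.1 CPM over the same lines.

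Nr2f1 (chr13:78337092-78348578, minus strand) separated the RPC lines from each other more than from the RP lines. It had 8.10, 1.73, 1.2 and 7.07 CPM in RP lines 1 to 4, and 4.42, 120, 90.8 and 10.2 CPM in RPC lines 1 to 4. RPC lines 2 and 3 stood far above the rest, RPC line 4 lay just above the RP lines, and RPC line 1 lay within them. Nr2f1 averaged 4.53 ± 3.57 CPM (SD, n = 4) over RP and 56.4 ± 57.9 CPM (SD, n = 4) over RPC lines. The log2 fold change was 3.64 with a standard error of 1.16. The highest line was 99.8 times the lowest.

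Nr2f2 (chr7:70001692-70016519, minus strand), the paralog needed for venous identity, was present at a similar level in every line. RP lines 1 to 4 had 260, 157, 113 and 174 CPM of Nr2f2, and RPC lines 1 to 4 had 168, 185, 184 and 242 CPM. Nr2f2 averaged 176 ± 61.8 CPM (SD, n = 4) over RP and 195 ± 32.3 CPM (SD, n = 4) over RPC lines. The highest line was 2.31 times the lowest, and the lowest count was 1125. Its log2 fold change was 0.15 with a standard error of 0.28. The more distant relative Nr2f6 also had counts in every line, from 21.3 CPM in RP line 1 to 114 CPM in RPC line 4.

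**Figure D2:**
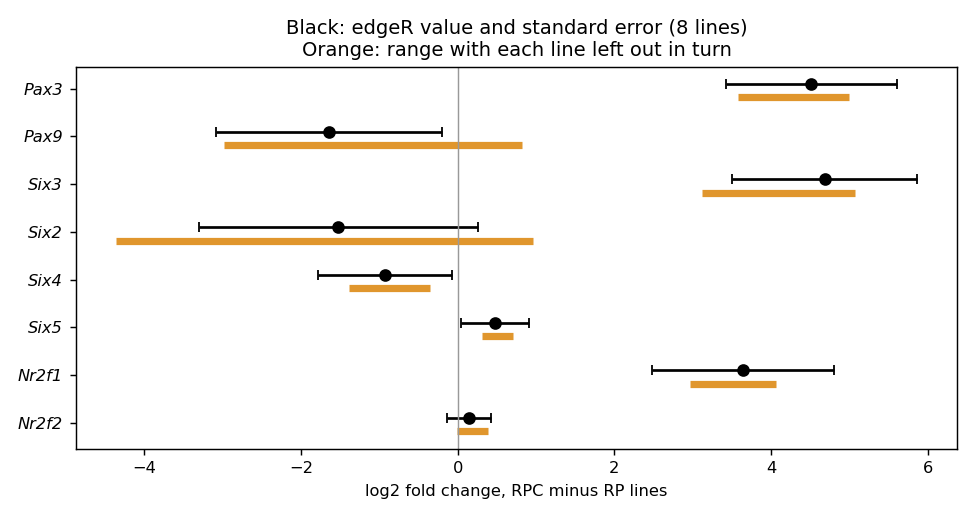
Log2 fold change of each gene, RPC minus RP lines, from edgeR (black points, bars are standard errors) and its range when each of the 8 lines is left out (orange). Pax3, Six3 and Nr2f1 stay at or above 2.97 in every case, while the ranges of Pax9 and Six2 cross 0, as does that of Nr2f2, from -0.0038 to 0.39.

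Across all 12739 genes with enough counts, edgeR's quasi-likelihood test called 0 genes (0%) at an adjusted p under 0.05 and a log2 fold change beyond 0.58, and 0 of the 6 genes described here that were tested. An unadjusted p under 0.05 was given by edgeR to 213 of the 12739 genes, Pax3 and Nr2f1 among them. DESeq2 called 11 higher and 2 lower genes, 0.0583% of the 22312 with an adjusted p. It gave 593 genes an unadjusted p under 0.05. Pax3 and Six3 were 2 of the 11 higher genes, Six3 at a DESeq2 adjusted p of 0.0493. In the genes tested, 0.989% had all RPC lines above all RP lines, and of all genes with a row 0.723% did. Pax3 and Six3 were 2 of the 8 genes with this pattern. Pax3, Six3 and Nr2f1 were chosen for being higher in the RPC lines. Their p-values, their calls and this pattern therefore give no support of their own.

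The 2 COUP-TF paralogs differed in their spread between lines. The SD of log2(CPM + 1) over the 8 lines was 2.14 for Nr2f1, larger than for 96% of the genes tested, and 0.37 for Nr2f2, larger than for 23.4%. It was 1.99 for Pax9, 1.74 for Pax3 and 1.42 for Six4, which exceeded 94.9%, 92.4% and 87.4% of the genes tested. Six5, with 0.48, was below the median gene (0.55). Pax9 spanned its whole range within the RP lines, and Six4 ranged from 9.22 to 78.7 CPM there.

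**Figure D3:**
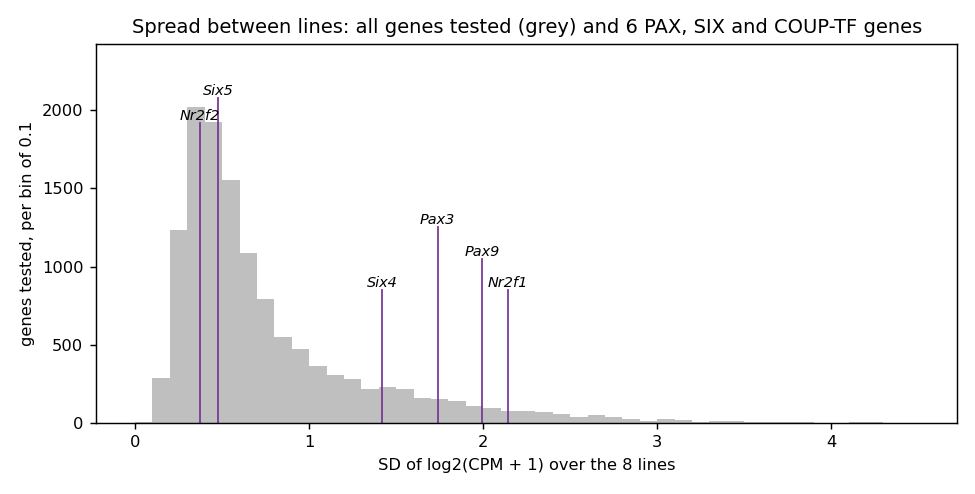
Number of tested genes by the SD of log2(CPM + 1) over the 8 lines (grey, bins of 0.1), with the 6 tested genes of the set as purple lines whose height has no meaning. Nr2f2 and Six5 fall in the bulk of the genes, and Six4, Pax3, Pax9 and Nr2f1 in the upper tail.

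Genes that overlap or neighbour these factors were examined next. A830082K12Rik, a long non-coding RNA gene that overlaps Nr2f1 on the opposite strand, had 0.438, 0.102, 0.10 and 0.126 CPM in RP lines 1 to 4 and 0.201, 3.06, 2.42 and 0.466 CPM in RPC lines 1 to 4. Its high lines, RPC lines 2 and 3 with 33 and 23 counts, were those of Nr2f1. Another long non-coding RNA gene, 3110006O06Rik, overlaps the 3′ end of Nr2f1 on the opposite strand and did not share this pattern. It had 5, 5, 2 and 0 counts in RP lines 1 to 4 and 0, 1, 1 and 2 counts in RPC lines 1 to 4. Six3os1, which overlaps Six3 on the opposite strand, had 5 and 8 counts in RPC lines 2 and 3, 1 count in RP line 1 and 0 in the other 5 lines. The sources used here do not say whether strand was used in counting. Reads in the stretch that Nr2f1 shares with A830082K12Rik, or Six3 with Six3os1, therefore cannot be told apart. The annotated 3′ ends of these 4 genes, which a 3′ library reads, lie outside the shared stretches. Where the reads fell was not tested. The protein-coding gene nearest to Nr2f1, Fam172a, ended 21821 bases away and had 122 to 441 counts, with its highest level in RPC line 2 and no such separation of lines. B130024G19Rik, antisense to the steady Nr2f2, had 3 to 5 counts in RP lines and 5 to 15 counts in RPC lines. Arrdc4, the nearest gene with counts on the lower-coordinate side of Nr2f2, lay 1602692 bases away. It was higher in every RPC line (5.59 to 7.93 CPM) than in any RP line (2.94 to 5.43 CPM), as were 0.989% of the genes tested. Mnat1, which overlaps Six4 on the opposite strand, had 432 to 900 counts, with its highest level in RP line 2, and Slc25a21, which overlaps Pax9, had at most 1 count. Sgpp2, the nearest gene with counts on the upstream side of Pax3, had at most 4 counts in any line.

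On chromosome 12, 154829 bases from Pax9, Nkx2-1, which defines the lung epithelial lineage, had 41.2, 17.6, 49.2 and 0 CPM in RP lines 1 to 4 and 12.6, 23.9, 8.41 and 0.466 CPM in RPC lines 1 to 4. RP line 1, the highest line of Pax9, was the second highest of Nkx2-1, but RP line 3 was high only in Nkx2-1.

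**Figure D4:**
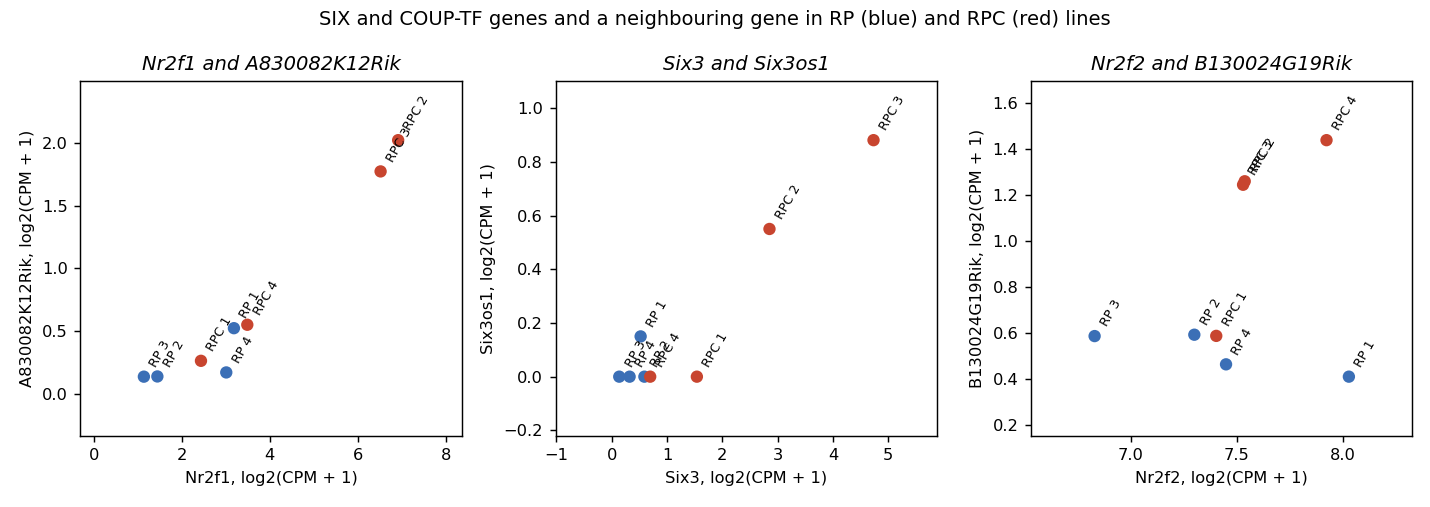
Levels as log2(CPM + 1) of Nr2f1 against its antisense gene A830082K12Rik, of Six3 against its antisense gene Six3os1 and of Nr2f2 against its antisense gene B130024G19Rik, with 1 point per line (RP blue, RPC red). RPC lines 2 and 3 stand apart in the first 2 panels, and the third, whose x axis covers a narrower range, has RPC lines 2, 3 and 4 highest for B130024G19Rik.

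Several sine oculis homeobox proteins, though not all to the same degree, act with EYA coactivators and DACH corepressors. All 6 EYA and DACH genes on the list had enough counts, and none was called by edgeR's test in either direction, with 2 positive and 4 negative log2 fold changes and a median of -0.24. The EYA genes were distributed over different lines. Eya4 had 0.110, 42.3, 0.401 and 49.6 CPM in RP lines 1 to 4, and 11.6, 2.51, 48.2 and 70.9 CPM in RPC lines 1 to 4. The 3 lines with least Eya4 were the 3 with most Six4. Eya2 was present in 7 lines at 8.73 to 118 CPM and nearly missing from RP line 3, at 0.301 CPM. Eya3 had 99 to 396 counts in every line. Dach1 reached 144 CPM in RP line 1, the line with most Pax9, Six2 and Six4, and had 0 counts in RP line 4.

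The 9 genes listed as COUP-TF relatives and cofactors included 7 with a row and 5 with enough counts, of which edgeR called 0. Their median log2 fold change was 0.21. Zfpm2, which encodes a cofactor that binds COUP-TFs, had 0.767, 20.4, 0 and 19.3 CPM in RP lines 1 to 4 and 12.1, 4.27, 25.3 and 21.0 CPM in RPC lines 1 to 4. Its low lines were those with most Six4, and its level was low in RPC line 2 and high in RPC line 3, the 2 lines with most Nr2f1.

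**Figure D5:**
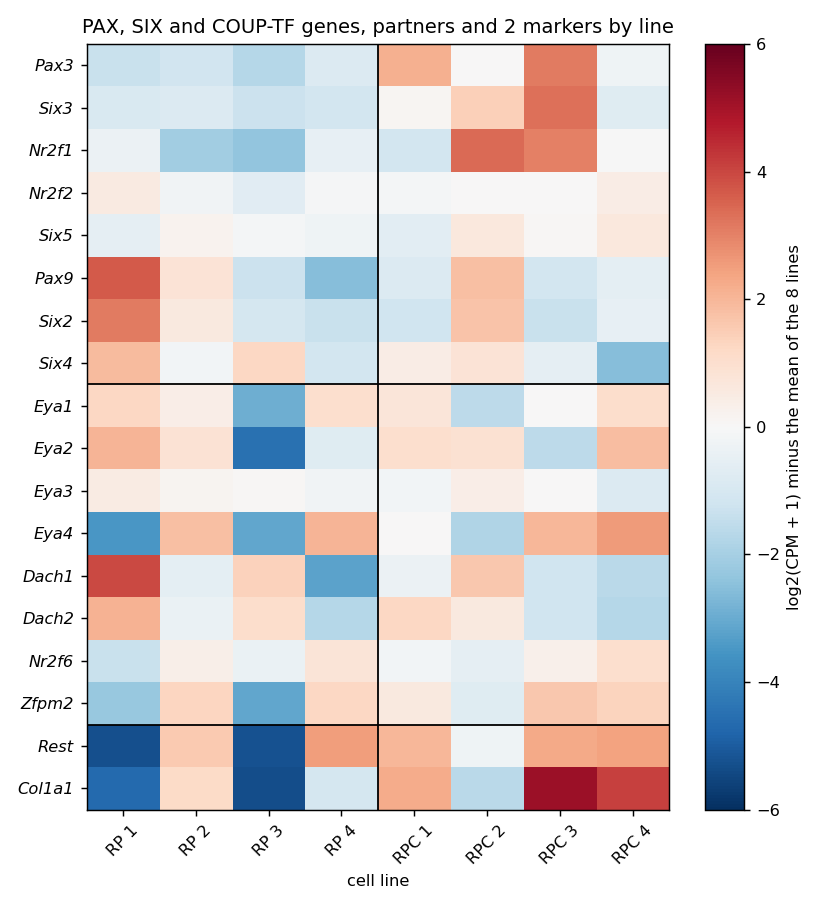
Log2(CPM + 1) minus the mean of the 8 lines, for the 8 genes of the set (top), 8 relatives and partners (middle) and the markers Rest and Col1a1 (bottom). Pax9, Six2, Six4 and Dach1 are red in RP line 1, and Pax3 and Six3 are reddest in RPC line 3.

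Genes that share an embryonic territory with Pax3 or Six3 were counted from 2 lists. Of 15 neural crest and dorsal neural tube genes, 11 had a row and 6 enough counts. None was called by edgeR, 5 of the 6 log2 fold changes were positive, and the median was 0.57. Met, a receptor gene that Pax3 regulates in migrating muscle precursors, had 0, 55.6, 0.802 and 106 CPM in RP lines 1 to 4 and 119, 7.61, 210 and 151 CPM in RPC lines 1 to 4. Its highest line, RPC line 3, was the highest of Pax3, but RP line 4, with 8 counts of Pax3, had more Met than RPC line 2. Of 12 eye field and anterior forebrain genes, 7 had a row and 4 enough counts, with 0 called and a median log2 fold change of -0.68. Lhx2, a factor of the eye field, had a log2 fold change of -1.98 with a standard error of 1.11. Rax, another eye field factor, had at most 11 counts, and RPC line 3, the line with most Six3, had 1.

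The fibroblast and mesenchymal list was also uneven between the lines. Of its 10 genes, 8 had a row and 5 enough counts, and all 5 had a positive log2 fold change, with a median of 2.47 and 0 called by edgeR. Its summed level was 3.81 to 5647 CPM in RP lines and 75.4 to 5920 CPM in RPC lines. Col1a1, a main collagen chain, had 2.08, 168, 0.902 and 35.9 CPM in RP lines 1 to 4, and 364, 24.2, 2744 and 1340 CPM in RPC lines 1 to 4. RPC line 3 was the highest of Col1a1, Pax3 and Six3, while RPC line 4 had much Col1a1 and the least Pax3 and Six3 of the RPC lines. Of the same list, Pdgfra had at most 22 counts and Lum at most 3 in any line, and Thy1 was highest in RP line 1. Col1a2 and Pdgfrb were highest in RPC line 3, at 315.9 and 17.35 CPM. Acta2, at 5409 CPM in RP line 2 and 4565 CPM in RPC line 4, made up most of the highest sum of each genotype. Dcn was higher in all 4 RPC lines than in any RP line, at 4.84 to 14.6 CPM against 0.301 to 3.96 CPM. The part of mesenchymal RNA in the levels of Pax3 and Six3 was not tested, and in bulk samples fewer cells of a type and less RNA per cell cannot be told apart.

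The lines' neuroendocrine state ran across the genotypes. Rest had 0.438 and 0.501 CPM in RP lines 1 and 3, and 167 and 313 CPM in RP lines 2 and 4. In RPC lines 1 to 4 it had 221, 46.0, 270 and 295 CPM. The summed neuroendocrine list reached 4389 CPM in RP line 1 and 6117 CPM in RPC line 2, the 2 lines with most Pax9 and Six2. The non-neuroendocrine list, with 10 of 11 genes measured, summed to 19.3 to 3281 CPM in RP lines and 449 to 2970 CPM in RPC lines. The lung epithelial list, with 8 of 10 genes measured, summed to 113 to 2934 CPM in RP lines and 53.8 to 975 CPM in RPC lines. In RP line 4, the highest, most of the sum was Cdh1 (1751 CPM), Krt8 (738 CPM) and Epcam (376 CPM), general epithelial genes. Foxj1 had 68.8 CPM there, and Sftpc, Sftpb and Scgb1a1 had 0 counts. Nr2f1 was high both in RPC line 2, with 46.0 CPM of Rest, and in RPC line 3, with 270 CPM.

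For each gene, the 3 genes with the most similar pattern were taken by Pearson's r of log2(CPM + 1) over the 8 lines among the genes tested. The points share depth and culture, and the values are descriptions, since the best of 12739 genes over 8 lines reached at least 0.919 for every one of the 8. The genes nearest to Pax3 were Dlk1 (r = 0.969), Gas1 (r = 0.943) and Thumpd3 (r = 0.939), where Dlk1 encodes a delta-like membrane protein and Gas1 a hedgehog coreceptor. Six3 was nearest to Col15a1 (r = 0.936), Iars (r = 0.925) and Mtr (r = 0.903). Nr2f1 was nearest to Aimp1 (r = 0.919), Nub1 (r = 0.918) and Erlec1 (r = 0.918), and Nr2f2 to Rnf185 (r = 0.960), Sccpdh (r = 0.948) and 5830417I10Rik (r = 0.944). The genes nearest to Six4 were H3f3a (r = 0.999), Ptch1 (r = 0.990) and Arid2 (r = 0.980), of which Ptch1 encodes the hedgehog receptor. For Pax9 they were Lsm14b (r = 0.993), Ppm1e (r = 0.976) and Tmem178 (r = 0.975), for Six2 Zbtb46 (r = 0.987), Cygb (r = 0.985) and Nceh1 (r = 0.980), and for Six5 Pfdn5 (r = 0.967), Eif3g (r = 0.962) and Vps26b (r = 0.958). No gene was among the 3 nearest of more than 1 of the 8. A high r says nothing of the size of the range. Of the genes nearest to Pax3, Dlk1 ran from 0 to 31.96 CPM but Thumpd3 only from 20.15 to 30.92 CPM. Aimp1, nearest to Nr2f1, ran from 190.5 to 307 CPM. By ranks (Spearman's rho), Six3 reached 0.738 with Col15a1 and with Iars and 0.81 with Mtr.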

How the data were processed

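Libraries of 8 murine SCLC lines were made with a 3′ mRNA kit. According to the study's methods and the labels, reads were aligned to GRCm39 with STAR 2.7.10a and quantified with Salmon 1.5.2, and the values the authors deposited are estimated counts for each gene, given as integers and not normalized. A table of the authors' own DESeq2 comparison (fold changes and p-values) was not used. The genotypes were compared with edgeR 4.0.16 in R 4.3.3 (TMM, filterByExpr, quasi-likelihood F test, Benjamini-Hochberg adjustment over all genes, adjusted p under 0.05 and log2 fold change beyond 0.58). Genes removed by the filter took their fold change from the fit without it. The genes and lists were chosen with earlier results of these data known. Named were these genes, the nearest and overlapping genes, the 3 genes most similar to each, and listed genes with at least 10 counts in 1 line. Listed genes below that are named only to say that they were near 0. Counts carry no stated molecular identifiers, and the error is the spread between lines. Gene positions and promoter sequences are from GENCODE M39 and GRCm39, which held 99.3% of the identifiers. Scripts were tested on simulated data. The alternatives were DESeq2 1.42.0, other normalization, no filter, no fold threshold, the replicate number as a block, another pseudocount and leaving out each line. Some genes are not reported here.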

Additional observations from a re-analysis of the deposited data

Results flagged for a closer look

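Of 16 groups of 4 lines (8 genes in 2 genotypes), 1 held a line that stood apart by Dixon's criterion on log2(CPM + 1), where chance gives about 1 in 20. It was Pax9 in RPC replicate 2, at 31.9 CPM, against 3.47 to 5.28 CPM in the other RPC lines. Without this line the log2 fold change of Pax9 was -2.98 instead of -1.64.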

How the results depend on the processing

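Of 102 alternative values of the 8 log2 fold changes, 98 kept their sign and 98 moved by less than 1 SD of the lines. edgeR called 0 genes in either direction under every normalization, without the filter, without a fold threshold and with any line left out (0 to 0). DESeq2 called 11 higher and 2 lower. With the replicate block edgeR called 0, and the log2 fold change was 3.79 for Pax3, 3.46 for Six3, 3.02 for Nr2f1 and 0.26 for Pax9, the only sign that changed under the block. Replicate numbers were not taken as pairs, since the correlations of same-numbered lines' deviations from the genotype means ranged from -0.537 to 0.369. Leaving out each line gave values of 3.58 to 5.00 for Pax3, -2.98 to 0.82 for Pax9, -4.37 to 0.96 for Six2, 3.12 to 5.08 for Six3, -1.39 to -0.35 for Six4, 0.31 to 0.71 for Six5, 2.97 to 4.06 for Nr2f1 and -0.0038 to 0.39 for Nr2f2, where RP replicate 1 turned Pax9 and Six2 and RP replicate 3 turned Nr2f2. As means of log2(CPM + pseudocount), the difference of Pax3 went from 2.52 to 3.74 and that of Six3 from 2.06 to 3.33 when the pseudocount was 0.1 in place of 1, since both are near 0 in RP lines. The cause of the other changes was not tested. Depth limits Six3 and Six2 most, with at most 5 counts in RP lines for Six3 and 0 counts of Six2 in 2 lines.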
